A study of Homo sapiens with 2 samples.

Results

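A group of 8 genes known mainly from neurons or the retina (of 13137 genes in the deposited table) were described in A549 cells, a human lung adenocarcinoma line. The genes are CPLX2, CACNA1A, SNCG, SCN3B, AIPL1, STMN3, FLRT2 and GDA, and all 8 symbols were found, 1 gene each. They were chosen by the values given here, namely because more of their tags were counted under the label shRNA-SOX2 than under shRNA-Con. Their higher counts are therefore a description and were not tested. The table marks its columns SC and S1, and from these initials SC was read as shRNA-Con and S1 as shRNA-SOX2. The direction of every ratio depends on this reading. The paper names EGF and RHOC among the genes whose transcription rose strongly when SOX2 was silenced. In the table, EGF had 0 tags under SC and 16 under S1, and RHOC had 168 and 1157. Both were thus higher in the column read as shRNA-SOX2, so the reading does not rest on the initials alone. Genes that the paper names as reduced were not looked up for this purpose.

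Both libraries came from A549 cells transduced with a lentiviral, doxycycline-inducible short hairpin RNA behind an H1 promoter with a tet operator (H1TetO), either against SOX2 (shRNA-SOX2) or with a scrambled sequence (shRNA-Con). The shRNA-SOX2 line was a puromycin-selected polyclone, so it was not 1 clone, and both lines were kept in doxycycline for 4 days before 4 µg of total RNA was taken. There was 1 library per condition, so no spread between replicates could be estimated, and 95% Clopper-Pearson intervals cover counting error only. Digital gene expression reads 1 short tag per transcript, so counts of different genes can be set side by side without division by transcript length. The table held 2093816 gene tags for the shRNA-SOX2-labelled library and 2304184 for shRNA-Con, and levels are given as normalised tags, which are tags per 1000000 gene tags. SOX2 itself, a transcription factor of stem cells and the hairpin's target, had 23 tags in the shRNA-SOX2-labelled library and 16 in shRNA-Con. The SOX2 ratio was 1.58 (interval 0.800 to 3.20, which includes 1), so its tags were not lower in the library that carries its name. The paper reports silencing of SOX2 by Western blotting in the doxycycline-treated hairpin line. That is a measure of protein, which tag counts do not give.

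In neurons, calcium that enters through voltage-gated channels at the nerve ending makes synaptic vesicles fuse with the membrane and release transmitter. CACNA1A encodes the pore subunit of the P/Q-type calcium channel of the nerve ending, and CPLX2 encodes complexin 2, a small protein that binds the assembled SNARE fusion complex. SCN3B is an auxiliary beta subunit of voltage-gated sodium channels, SNCG is gamma-synuclein, and STMN3 is a stathmin that binds tubulin. FLRT2 is a membrane protein of cell adhesion and axon guidance that binds latrophilins and UNC5 receptors. GDA is guanine deaminase, also known as cypin, which turns guanine into xanthine, and AIPL1 is a retinal chaperone needed for the rod phosphodiesterase. None of the 8 is a usual marker of lung epithelium.

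A tag names a gene only through its sequence, so the sequences that could have been counted are shown first. The enzyme is not given in the sources used here. Of 123 protein-coding genes of GENCODE release 29 with no CATG in any coding transcript, 5 (4.07%) were in the table, against 59.2% of 19546 with that site. For GATC, the other site in common use, 18.3% of 333 genes without it were in the table. Tags were therefore read as CATG and the 17 bases after it, at the site nearest the 3′ end of RefSeq-linked transcripts (for FLRT2, where no transcript was linked, of the longest coding one). Capitals mark the CATG site, and the longest transcript is shown for each gene.

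CPLX2: CATGacaacaaagaaaaagac
CACNA1A: CATGacattcaaaaagaaaaa
AIPL1: CATGgcagcgttgggaccttc
STMN3: CATGgtggcagcgctcatagc
SNCG: CATGcggctgcccacgctcct
FLRT2: CATGgtatcattctgtaaata
GDA: CATGtatgtattcataggaac
SCN3B: CATGtcaataaagtatccctg

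All 8 tags lie in the 3′ UTR of their gene, in 1 exon each, and none was found in the transcripts of another gene. On GRCh38 they are at chr5:175883990-175884010 (plus strand) for CPLX2, chr19:13206467-13206487 (minus) for CACNA1A, chr17:6424111-6424131 (minus) for AIPL1 and chr20:63639811-63639831 (minus) for STMN3. Those of the other 4 are at chr10:86963077-86963097 (plus) for SNCG, chr14:85654237-85654257 (plus) for FLRT2, chr9:72252105-72252125 (plus) for GDA and chr11:123629195-123629215 (minus) for SCN3B. The table gives a count per gene and not per tag, so which of a gene's tags were counted is not known. The tags of CPLX2 and CACNA1A each hold 13 A among their 21 bases, whereas the other 6 hold 2 to 7. Among genes of the table with a RefSeq-linked tag, 0.591% have a tag with 13 or more A.

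The 8 genes fell into 2 sets by abundance, 3 among the most counted genes of the table and 5 with far fewer tags. In a bulk sample, a change in the number of cells that make a transcript and a change in its amount per cell cannot be told apart. CACNA1A, CPLX2 and AIPL1 together gave 5807 tags in shRNA-Con and 18347 in the shRNA-SOX2-labelled library, which is 0.252% and 0.876% of all gene tags. STMN3, SNCG, GDA, FLRT2 and SCN3B together gave 37 and 350 tags. Nearly all tags of the 8 genes thus belong to 3 of them, as the plot of levels by library shows.

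**Figure D1:**
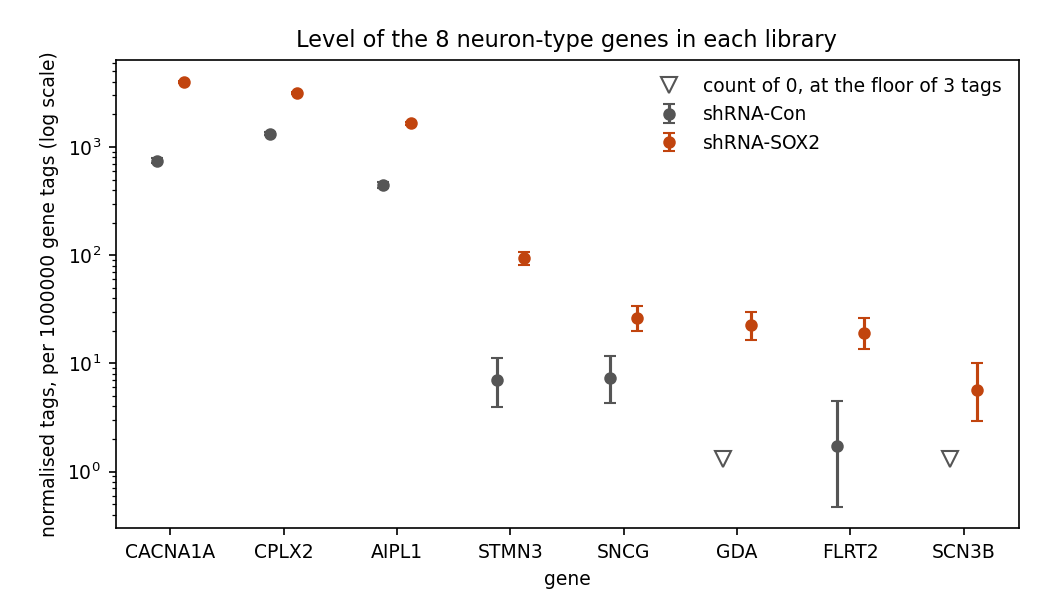
Normalised tags, per 1000000 gene tags (log scale), of the 8 genes in the shRNA-Con library (grey) and the shRNA-SOX2-labelled library (orange), with bars for the 95% counting interval and open triangles at 3 tags for a count of 0. CACNA1A, CPLX2 and AIPL1 lie at or above 447 normalised tags in both libraries, and the other 5 at or below 93.6.

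Of the genes of calcium entry and vesicle release, CACNA1A had 1725 tags in the shRNA-Con library and 8296 in the shRNA-SOX2-labelled library, or 749 and 3962 normalised tags. That is a ratio of 5.29 (interval 5.02 to 5.58), and it moved the channel gene from rank 151 to rank 14 of all genes by tag count. CPLX2 had 3051 and 6582 tags, or 1324 and 3144 normalised tags, a ratio of 2.37 (2.27 to 2.48). The complexin was already at rank 89 in shRNA-Con and stood at rank 22 in the shRNA-SOX2-labelled library. It has the smallest ratio of the 8, and 673 of the 10045 genes with at least 20 tags summed over both libraries had a larger one.

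SCN3B, the sodium channel subunit, had 0 tags in the shRNA-Con library and 12 in the shRNA-SOX2-labelled library (5.73 normalised tags, interval 2.96 to 10). With the count of 0 set to a floor of 3 tags, or 1.30 normalised tags in shRNA-Con, the SCN3B ratio was 4.4. The counting interval of its ratio starts at 3.06. With 12 tags in all it is the 1 gene of the 8 that did not reach 20 tags, and it enters no count over tested genes.

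Among the genes of the neuronal cytoskeleton and of synuclein, STMN3 had 16 tags in the shRNA-Con library and 196 in the shRNA-SOX2-labelled library, or 6.94 and 93.6 normalised tags. Its ratio was 13.5 (8.10 to 24.1), and 14 tested genes had a larger one. SNCG had 17 and 55 tags, or 7.38 and 26.3 normalised tags, with a ratio of 3.56 (2.04 to 6.54). In shRNA-Con the stathmin and the synuclein were level, with counting intervals that overlap, and in the other library STMN3 stood above SNCG with intervals that do not.

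FLRT2, the adhesion and guidance gene, had 4 tags in the shRNA-Con library and 40 in the shRNA-SOX2-labelled library, a ratio of 11 (3.98 to 42.3). GDA, the guanine deaminase, had 0 and 47 tags, the latter 22.4 normalised tags. Its ratio was 17.2 with the count of 0 set to the floor of 3 tags, and the counting interval of the ratio starts at 13.5. By the fitted ratio, in which a count below 3 tags is set to 3, GDA was exceeded by 3 tested genes and FLRT2 by 21. Both reached 20 tags through the shRNA-SOX2-labelled library alone. The 40 to 55 tags of FLRT2, GDA and SNCG in the shRNA-SOX2-labelled library gave overlapping counting intervals, so their order in that library is not resolved.

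AIPL1, the retinal chaperone, had 1031 tags in the shRNA-Con library and 3469 in the shRNA-SOX2-labelled library, or 447 and 1657 normalised tags. The ratio was 3.70 (3.45 to 3.97), and the gene moved from rank 289 to rank 62. AIPL1 was thus counted far more often than STMN3, SNCG, FLRT2, GDA and SCN3B in both libraries.

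For comparison, 10.4% of the 10045 tested genes were higher by at least 2-fold in the shRNA-SOX2-labelled library and 13% were lower by as much. Since the 8 genes were chosen by this ratio, nothing is read from their place in it. By Fisher's exact test at FDR 0.001, which compares these libraries and not the conditions, 9.53% of all 13137 genes were called higher and 12.2% lower. The log2 ratios of the 8 genes ran from 1.25 (CPLX2) to 4.11 (GDA, a bound), with a median of 2.27 with GDA and SCN3B at their bounds, and the median of all tested genes was -0.10. The plot of ratio against tag number shows where the 8 genes stand among all genes.

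**Figure D2:**
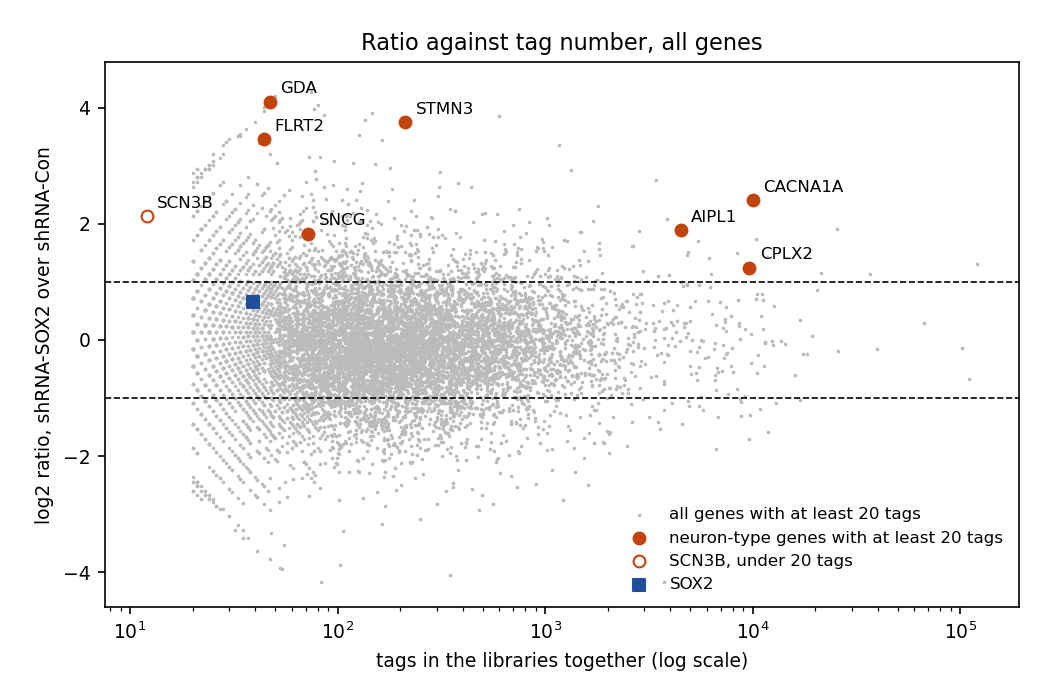
Each grey point is a gene with at least 20 tags, placed by its tags in the libraries together (x, log scale) and its log2 ratio of the shRNA-SOX2-labelled library over shRNA-Con (y), with dashed lines at 2-fold. CACNA1A, AIPL1 and CPLX2 (orange) lie at high counts, STMN3, GDA, FLRT2 and SNCG at low counts, SCN3B (open) under 20 tags, and SOX2 (blue square) between the lines.

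Close relatives of the 8 genes were looked at as well. FLRT3, the paralog of FLRT2, had 95 tags in the shRNA-Con library and 355 in the shRNA-SOX2-labelled library, a ratio of 4.11 (3.27 to 5.21). STMN1, the stathmin of dividing cells, had 198 and 173 tags, a ratio of 0.962 (0.780 to 1.19). CPLX1, the other complexin of the brain, had 0 and 4 tags. It was so close to the floor of 3 tags that no ratio is given. STMN2, SNCB and FLRT1 were not in the table used here.

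Other genes were read from 14 lists, with the 8 themselves left out. The lists hold relatives and partners of the 8, regulators of neuronal genes, and markers of neuronal, epithelial and other cell types. They were chosen with earlier results of these data known. Over the 14 lists together, 117 different genes had at least 20 tags, of which 28 (23.9%) were higher by at least 2-fold and 9 (7.69%) lower, beside 10.4% and 13% of all tested genes. Their median log2 ratio was 0.10. The shares differed between lists, as the plot of the lists shows.

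Of 22 tested genes of synaptic vesicle release, 5 (22.7%) were higher by at least 2-fold and 0 were lower. Of all tested genes, 10.4% were higher and 13% lower. The median log2 ratio of the list was 0.26. UNC13A, a vesicle priming factor of neurons, had 23 tags in the shRNA-Con library and 68 in the shRNA-SOX2-labelled library, a ratio of 3.25 (2.0 to 5.47). STX3 (78 and 150 tags) and SNAP23 (53 and 103 tags), SNARE proteins of many cell types, had ratios of 2.12 and 2.14. NAPB, a SNARE recycling factor of the brain, had 24 and 46 tags, and the SNARE protein VAMP1 had 21 and 39. The remaining 17 genes, which include the neuronal SNARE protein SNAP25 with a ratio of 0.886, lay within 2-fold.

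Of the calcium channel subunits, 4 had at least 20 tags. Of these 4, 1 was higher and 1 lower by at least 2-fold, beside 10.4% and 13% of all tested genes. CACNA1G, the pore of a T-type channel, had 10 and 34 tags, a ratio of 3.74 (1.81 to 8.49). CACNG4, an auxiliary gamma subunit that also binds AMPA receptors, had 28 and 8 tags, a ratio of 0.314 (0.124 to 0.708). None of these channel genes came near the 8296 tags of CACNA1A.

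For FLRT2, 4 of its listed binding partners had at least 20 tags, and 1 was higher. LPHN2, a latrophilin, had 13 and 29 tags, a ratio of 2.45 (1.24 to 5.14). For AIPL1, 5 genes of phototransduction and photoreceptors were tested, with a median log2 ratio of 0.77. UNC119, which carries acylated proteins in photoreceptors and other cells, had 87 and 285 tags, a ratio of 3.60 (2.83 to 4.64). The other 4 lay within 2-fold. Of all tested genes, 10.4% were higher and 13% lower, and lists of 4 and 5 genes are too short to set against these shares.

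For GDA, 16 genes of purine salvage and catabolism were tested, with a median log2 ratio of -0.28. Of these 16, 1 (6.25%) was higher and 2 (12.5%) were lower, near the 10.4% and 13% of all tested genes. NT5E, the ectonucleotidase CD73, had 48 and 111 tags, a ratio of 2.54 (1.80 to 3.65). IMPDH2, the enzyme that commits IMP to guanine nucleotides, had 327 and 122 tags, a ratio of 0.411 (0.331 to 0.507). ADSL, an enzyme of purine synthesis, had 142 and 52 tags, a ratio of 0.403 (0.287 to 0.557). The other 13 of these genes lay within 2-fold.

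**Figure D3:**
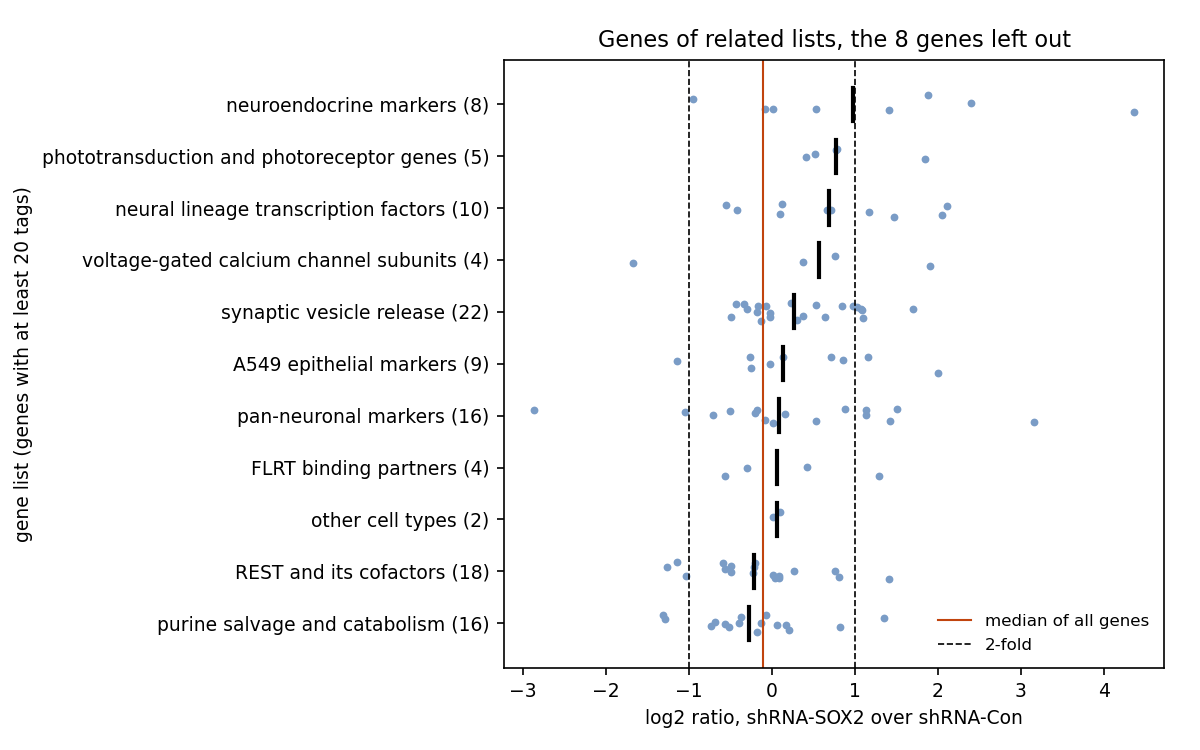
Each point is a gene with at least 20 tags, placed by its log2 ratio of the shRNA-SOX2-labelled library over shRNA-Con (x) in the rows of the lists it belongs to, with a black bar at the list's median, an orange line at the median of all tested genes and dashed lines at 2-fold (lists with 1 tested gene and those of family members and sodium channel subunits are not drawn). Among the lists drawn, medians run from -0.28 for purine salvage to 0.97 for the neuroendocrine markers, and most hold genes on both sides of 0.

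The labelled cell type was checked against markers fixed with the lists. Of 14 epithelial markers, 10 were in the table and 9 were tested, and several were abundant in both libraries. KRT18 had 10318 and 7887 tags, KRT8 7702 and 12729, and ALDH1A1 7035 and 14268, the last a ratio of 2.23 (2.17 to 2.30). KRT19 was higher (35 and 127 tags, ratio 3.99) and KRT7 lower (3899 and 1606 tags, ratio 0.453). EPCAM, an epithelial adhesion marker, had only 8 and 4 tags, and CDH1 had 50 in each library. AKR1C1, SFTPB, SFTPC and NKX2-1 were not in the table used here. Glial markers were absent from the table but for MBP (91 and 43 tags), and of the 12 markers of other cell types 2 had at least 20 tags, ACTA2 (49 and 45) and COL1A1 (44 and 43). LYZ (0 and 4 tags) and PTPRC (2 and 2), markers of blood cells, were next.

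Of 30 pan-neuronal markers, 20 were in the table and 16 were tested. Of these 16, 5 were higher by at least 2-fold and 2 were lower, beside 10.4% and 13% of all tested genes. The median log2 ratio of the markers was 0.09. Their summed level was 3312 normalised tags in shRNA-Con and 3187 in the shRNA-SOX2-labelled library. UCHL1, a ubiquitin hydrolase of neurons that tumours also express, held most of it, with 4513 and 4147 tags. BASP1 had 1365 and 1080 tags and MAP1B 1066 and 594. These 3 most counted markers were thus not higher.

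NEFL, the light neurofilament, had 8 and 65 tags, a ratio of 8.94 (4.28 to 21.6), and the adhesion protein CNTN1 had 33 and 85, a ratio of 2.83 (1.88 to 4.38). TUBB3 had 7 and 17 tags, and THY1 and L1CAM had 7 and 14 each, with ratio intervals that for the latter pair include 1. RBFOX3, a splicing factor of mature neurons, had 34 and 15 tags, a ratio of 0.486 (0.246 to 0.916). PRPH, peripherin, had 24 and 2 tags, a ratio of 0.0917 (0.0105 to 0.369). Neurofilament and peripherin, both intermediate filament proteins of neurons, thus stood on opposite sides. NEFL reached 20 tags through the shRNA-SOX2-labelled library alone, and PRPH and RBFOX3 through shRNA-Con alone. STMN2, DCX, GAP43 and SYN1 were among the 10 pan-neuronal markers not in the table used here.

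Of 8 tested neuroendocrine markers, 4 were higher by at least 2-fold and 0 were lower, beside 10.4% and 13% of all tested genes. Their median log2 ratio was 0.97. CHGB, chromogranin B, had 30 and 144 tags, a ratio of 5.28 (3.55 to 8.11), while ENO2, a neuronal enolase, had 113 and 97. SCG3, secretogranin III of secretory granules, had 2 and 56 tags, a ratio of 30.8 (8.14 to 261). DDC, which makes dopamine and serotonin, had 12 and 40 tags, and CPE, a prohormone-processing enzyme, had 12 and 29. CHGA had 0 and 7 tags, and INSM1 and NEUROD1, transcription factors of neuroendocrine lung tumours, were not in the table used here. The summed level of the list, mostly UCHL1, was 2064 normalised tags in shRNA-Con and 2196 in the shRNA-SOX2-labelled library. SCG3, DDC and CPE reached 20 tags through the shRNA-SOX2-labelled library alone. The 4 markers past 2-fold stood higher in the same library as the 8 genes, and their part in the result was not tested.

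Regulators of neuronal genes were looked at next. The list of neural lineage transcription factors also holds the ID genes. Of its 10 tested genes, 4 were higher and 0 were lower by 2-fold, beside 10.4% and 13% of all tested genes. Their median log2 ratio was 0.69. ID1 had 520 and 1307 tags (ratio 2.77), ID2 156 and 320 (2.26) and ID4 16 and 60 (4.13), and these proteins bind and block bHLH factors. ONECUT2, a homeodomain factor, had 12 and 47 tags, a ratio of 4.31 (2.25 to 8.93). It was the only gene of the 4 outside the ID family. ID4 and ONECUT2 reached 20 tags through the shRNA-SOX2-labelled library alone. REST, the repressor of neuronal genes in other cells, was not in the table used here.

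Of 18 tested REST cofactors, 1 (5.56%) was higher and 3 (16.7%) were lower, beside 10.4% and 13% of all tested genes. The median log2 ratio of the cofactors was -0.21. RCOR1, or CoREST, had 36 and 16 tags, a ratio of 0.489 (0.253 to 0.904). EHMT2, a histone H3 lysine methyltransferase, had 45 and 17 tags (0.416), and HMG20B of the CoREST complex had 56 and 23 (0.452). SMARCA4, the BRG1 remodelling ATPase, had 22 and 53 tags, a ratio of 2.65 (1.59 to 4.58). These cofactors thus lay close to the median of all tested genes, with few past 2-fold.

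The named protein-coding gene on each side of the 8 was looked up by name in RefSeq. Of 16 neighbours, 11 were in the table and 7 had at least 20 tags, and none of the 7 was higher by 2-fold. Of all tested genes, 10.4% were higher and 13% lower by as much, and 7 genes are too few to set against these shares. IER2 and CCDC130 (YJU2B), which flank CACNA1A, had 211 and 212 tags and 53 and 30 tags. Beside FLRT2, GALC had 102 and 60 tags and SEL1L, an ER quality control gene, had 387 and 87, a ratio of 0.247 (0.194 to 0.313). GMEB2 beside STMN3 had 31 and 10 tags, ZFAND5 beside GDA 384 and 423, and GRAMD1B beside SCN3B 43 and 54. Of these 7, SEL1L and GMEB2 were lower by at least 2-fold, and the other 5 lay within it. MMRN2, ZNF202, WSCD1 and RTEL1 had 3 to 15 tags summed over both libraries.

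Promoters (RefSeq, GRCh38.p14, 250 bases before to 50 after a gene's start) were found for 6 of the 8 genes, 9 windows in all, and none was given for SCN3B and AIPL1. They are shown for STMN3 (chr20:63652717-63653016, minus strand) and GDA (chr9:72149190-72149489, plus strand), the tested genes of the 8 with the largest ratios, with GC boxes (GGGCGG on either strand) in capitals.

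STMN3 promoter: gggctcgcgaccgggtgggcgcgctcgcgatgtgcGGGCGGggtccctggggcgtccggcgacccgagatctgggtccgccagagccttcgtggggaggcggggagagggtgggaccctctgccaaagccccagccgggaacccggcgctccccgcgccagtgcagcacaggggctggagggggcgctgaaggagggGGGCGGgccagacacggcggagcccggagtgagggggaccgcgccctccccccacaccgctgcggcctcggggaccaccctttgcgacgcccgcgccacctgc
GDA promoter: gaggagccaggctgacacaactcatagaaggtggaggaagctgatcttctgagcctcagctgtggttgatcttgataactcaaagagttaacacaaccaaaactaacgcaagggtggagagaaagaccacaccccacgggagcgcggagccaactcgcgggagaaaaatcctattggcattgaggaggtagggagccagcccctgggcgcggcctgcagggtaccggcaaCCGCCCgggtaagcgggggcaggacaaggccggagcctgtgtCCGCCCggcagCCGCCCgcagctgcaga

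A GC box was found in 5 of the 9 windows, 1 each of CACNA1A, FLRT2, GDA, SNCG and STMN3, beside 45.0% of all 35116 promoter windows. The window of STMN3 is 77.7% G or C, against a median of 58.7% over all windows. The letters ATTGTT, a core that SOX proteins bind, were in 0 of the 9 windows on either strand, beside 10.1% of all. TATAAA was in 0 of 9, beside 11.5%, and neither TTCAGCACC nor GGACAGCGC, the left and right parts of the element that REST binds, was in any, beside 0.376% and 0.581%. A match or its absence in these windows says nothing of binding.

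CACNA1A and AIPL1, which are among the most counted genes, each also have a CATG tag inside annotated transcripts that ends in a long run of A. This feature was noticed after the values were seen. The run is in capitals below, and OSBPL8 and LPIN1 are shown because they share it.

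CACNA1A A-run tag: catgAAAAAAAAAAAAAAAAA
AIPL1 A-run tag: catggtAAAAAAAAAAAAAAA
OSBPL8 A-run tag: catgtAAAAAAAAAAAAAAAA
LPIN1 A-run tag: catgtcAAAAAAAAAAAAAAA

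The CACNA1A tag lies in the 3′ UTR (chr19:13206957-13206977, minus strand) and occurs in 8 annotated transcripts of the gene. With a tail of A added to each coding transcript, the last tag of 554 other genes would have these same letters. For the AIPL1 tag (chr17:6425310-6425330, minus strand) the number is 27. Without an added tail, neither was found in the transcripts of another gene. AIPL1 has a further last tag in 1 RefSeq-linked transcript that is found in transcripts of 44 other genes. A tag that more than 1 gene can give cannot be assigned to 1 of them, and the part of such tags in the counts of CACNA1A and AIPL1 was not tested.

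Of all genes with a count, 24 have a CATG tag ending in at least 12 A, and 22 of them had at least 20 tags. Without CACNA1A and AIPL1, 20 remained, of which 9 (45.0%) were higher by at least 2-fold and 4 were lower. Of all tested genes, 10.4% were higher and 13% lower. The median log2 ratio of the 20 was 0.85. The 3 of these with the most tags were OSBPL8 (653 and 2175 tags, ratio 3.67), LPIN1 (308 and 920, 3.29) and EPS8 (249 and 657, 2.90). They were all higher, as was NIPAL3 (141 and 610, 4.76), whereas DDX56 was not (361 and 283, 0.863) and SCFD1 was lower (195 and 83, 0.468). Of the 20, 6 had over 500 tags, and 5 of these 6 were higher. With the 8 genes left out, 8.23% of all 1652 genes with over 500 tags were higher. The plot of the A-run genes shows that those with the most tags stand on the higher side, with both directions among the rest.

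A last tag with 13 or more A of 21 bases in a RefSeq-linked transcript, as CPLX2 and CACNA1A have, was found in 66 other genes of the table, 54 of them tested. Of these 54 genes, 10 (18.5%) were higher and 3 (5.56%) lower, beside 10.4% and 13% of all tested genes. Their median log2 ratio was -0.09. How many tags of CPLX2 and CACNA1A came from these A-rich sites was not tested. CPLX2, STMN3, SNCG, FLRT2, GDA and SCN3B have no CATG tag that ends in at least 12 A.

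The process terms in the table itself were read last, again without the 8 genes, and these terms were chosen after the values were seen. Of 151 tested genes under nervous system development, which the table gives to GDA and STMN3, 28 (18.5%) were higher and 20 (13.2%) lower. Under visual perception, given to AIPL1, 7 of 59 were higher and 11 lower. Calcium ion transport, given to CACNA1A, had 2 of 29 higher and 3 lower, and sodium ion transport, given to SCN3B, had 6 of 50 higher and 8 lower. Cell adhesion, given to FLRT2, had 43 of 176 (24.4%) higher and 24 lower, and neurotransmitter transport, given to CPLX2, had 5 of 11 higher and 2 lower. Neuron projection development, also given to STMN3, had 3 of 22 higher and 3 lower. Terms given to none of the 8 were read too. Synaptic transmission had 12 of 42 (28.6%) higher and 5 lower, axon guidance 3 of 19 and 1, and neurotransmitter secretion 1 of 6 and 2. Genes of both directions were thus found under every term. The channel and vision terms were near the share of all tested genes (10.4% higher and 13% lower).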

How the data were processed

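mRNA from 2 cultures of A549 cells, 1 per condition, was profiled by digital gene expression. The authors purified mRNA with oligo(dT) beads, and the deposited table gives raw tag counts per Entrez Gene ID together with the authors' TPM, which is the count scaled to 1000000 clean tags. TPM was used here only to recover the clean tags (3456234 for the shRNA-SOX2-labelled library and 3516266 for shRNA-Con). The lowest count above 0 is 2. The submitters' processing notes name hg19, and the aligner, tag enzyme and annotation are not given in the sources used here. Columns with the authors' log2 ratio, p-value and FDR were not used, nor were transcript coordinates without a build.

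Each gene's share of gene tags in the shRNA-SOX2-labelled library was divided by that in shRNA-Con, with counts below 3 set to 3, except that a ratio with a count of 2 is given from the counts themselves. Genes with at least 20 tags in both libraries together were called at 2-fold. A gene could thus pass this minimum through 1 library alone, and the counts over lists include such genes. No test between conditions is possible with 1 library each. Intervals are 95% Clopper-Pearson and cover counting error only. The 8 genes and the 14 lists were chosen with earlier results of these data known, and some genes stand in more than 1 list. Genes named are the 8, family members, listed genes past 2-fold, the 3 most counted markers of a cell type and the neighbours, and any other gene was named after its values were seen. Of 13137 IDs, 13086 were found in RefSeq. Tags and promoters were read from GENCODE release 29 (GRCh38) and RefSeq. Results of some named genes are not reported here. The steps were tested on simulated data. Python 3.11.15, scipy 1.17.1, R 4.3.3, edgeR 4.0.16 and DESeq2 1.42.0 were used, the last pair for alternative scaling and edgeR's exact test with an assumed coefficient of variation of 0.2.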

Additional observations from a re-analysis of the deposited data

How the results depend on the processing

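No paired analysis was possible because there was 1 library for each condition. Scaling by TMM factors, by the median ratio or by clean tags moved every log2 ratio by 0.07, 0.07 and -0.11, and each of the 8 genes stayed higher under all of them, from 1.13 to 1.32 for CPLX2 and from 2.29 to 2.48 for CACNA1A. With 0.5 added to each count, GDA had 6.71 and SCN3B 4.78, values that depend on the number added. With a minimum of 100 tags, 471 genes were higher and 713 lower by 2-fold, against 1040 and 1306, and 12 and 3 listed genes, against 28 and 9, since fewer genes were tested. By edgeR's exact test with an assumed coefficient of variation of 0.2 at FDR 0.001, 65 genes were higher and 48 lower, and 4 and 0 of the listed genes. By Fisher's exact test 28 and 10 of the listed genes were called, and the other alternatives kept each of these counts within 1.5 times. With 1 library per condition, differences between cultures cannot be told apart from those between conditions, and genes with few tags, such as SCN3B and FLRT2, are limited by depth.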
